A study of Mus musculus with 15 samples.

Results

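The genes described here serve vesicle trafficking and exocytosis. They were chosen by symbol from 4 deposited tables of chromatin accessibility: Rab GTPases and Rab-named partners, Arf GTPases, syntaxins, VAMP proteins, synaptotagmins, exocyst subunits (Exoc), TRAPP subunits (Trappc), COPI coat subunits, Sec genes, subunits of the AP-1 to AP-4 adaptors, Vps genes and sorting nexins (Snx). The rule found 141 genes of the 10268 with a listed peak, of which 3 (Arf4os, Rab10os, Rab26os) are antisense RNA genes rather than trafficking proteins. By family there were 39 Rab, 2 Arf, 6 Stx, 5 Vamp, 7 Syt, 6 Exoc, 12 Trappc, 4 Cop, 15 Sec, 12 Ap, 14 Vps and 19 Snx genes. Not every gene with a matching symbol is a core part of its machine, and each peak carries only the name of the gene it was assigned to.

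ATAC-seq, an assay that reads open chromatin from the adapters a transposase places there, was run on islets of the pancreas from males 3 months old. All animals carried Arid1aFl/Fl and MIP-rtTA, in which the mouse insulin promoter drives a doxycycline-dependent activator in beta cells. The KO-labelled animals also carried TRE-Cre, giving Arid1a βKO, loss of a subunit of the SWI/SNF chromatin remodeller in beta cells. Doxycycline was given in drinking water at 1 g/L for 2 weeks, and partial pancreatectomy (PPx), the surgical removal of part of the pancreas, followed 1 week after it ended. Before PPx there were 4 control and 3 KO-labelled libraries, and 6 days after it 4 of each. Whole islets hold other endocrine, vascular and immune cells that the insulin promoter does not target, so a change in the number of cells of a type and a change in accessibility within each cell cannot be told apart. Each library came from 40000 islet cells.

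Insulin leaves the beta cell through the pathway these genes build. Proteins enter the endoplasmic reticulum through the Sec61 channel, leave it in COPII-coated vesicles and return in COPI-coated ones. TRAPP complexes and Rab GTPases direct vesicles to the right membrane, adaptors sort cargo into vesicles, many of them clathrin-coated, and the exocyst tethers vesicles to the plasma membrane. Syntaxins and VAMP proteins then drive fusion, which synaptotagmins couple to calcium. Sorting nexins and Vps proteins run the traffic between endosomes, lysosomes and the Golgi.

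The authors' deposited tables gave, for each peak of 601 bp, 1 mean per group as log2 normalised reads (here the level), the log2 fold, p, the false discovery rate (FDR) and the number of libraries in which the peak was called. They gave no value per library, so no spread between animals is shown, and the depth per library is unknown here. A peak is listed only where it was called in at least 2 libraries of its comparison. A peak called in no library of a group is thus listed through the other group, and its call counts add no support to its fold. Folds are KO-labelled minus control, or after minus before PPx. A peak is called gained or lost at an FDR of 0.05 or below. The standard error (SE) beside a fold was recovered from the fold and its p. A fold of 1.00 on this log2 scale is a doubling. All coordinates are of mm10.

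As a check of the labels, a peak in an exon of Arid1a (chr4:133692981-133693581) rose in the KO-labelled islets in the authors' deposited tables, from 1.21 to 5.49 before PPx (fold 4.28, FDR 0.00187). After PPx it rose from 0.40 to 4.04 (fold 3.64, FDR 0.00201). The labels do not say which part of Arid1a was floxed, so this peak tells the groups apart without showing a loss, and the word KO-labelled is kept below. Of 10 beta cell markers 5 had a listed peak (Ins1, Nkx6-1, Slc30a8, Mafa and Ucn3), and 0 of 6 acinar markers had one. So did 3 of 6 alpha cell, 3 of 6 endothelial, 2 of 4 leukocyte and 2 of 5 stellate and fibroblast markers. For delta and PP, ductal and Schwann cells it was 1 of 4, 1 of 5 and 0 of 3. The share listed does not set beta cells apart.

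The promoters shown here belong to 5 genes on which the results turn: Ap2s1 and Rab2b, gained in both comparisons that involve the KO-labelled libraries after PPx, Snx17 and Trappc10, with the steepest gains after PPx in KO-labelled islets, and the exocyst gene Exoc4. Each is the RefSeq window of 300 bases (GRCm38.p6), 250 before and 50 after the start of transcription, 5′ to 3′ on the gene's strand. Capitals mark matches on either strand to GGGCGG (Sp), CCGGAAG (ETS), CCAAT (NF-Y) and CACGTG (E-box), and 0 of the marked matches overlap one another.
Ap2s1, chr7:16738194-16738493, plus strand: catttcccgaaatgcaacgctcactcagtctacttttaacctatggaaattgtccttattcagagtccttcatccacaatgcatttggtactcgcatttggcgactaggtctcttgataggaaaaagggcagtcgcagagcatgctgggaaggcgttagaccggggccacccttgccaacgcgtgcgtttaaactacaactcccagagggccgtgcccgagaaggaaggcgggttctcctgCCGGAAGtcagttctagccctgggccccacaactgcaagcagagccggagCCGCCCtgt
Rab2b, chr14:52279346-52279645, minus strand: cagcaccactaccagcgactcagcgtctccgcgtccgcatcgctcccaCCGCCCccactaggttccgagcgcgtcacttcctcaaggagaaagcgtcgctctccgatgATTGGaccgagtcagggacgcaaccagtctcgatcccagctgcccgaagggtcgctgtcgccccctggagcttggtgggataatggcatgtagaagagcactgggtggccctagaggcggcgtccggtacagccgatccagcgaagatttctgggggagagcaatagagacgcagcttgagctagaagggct
Snx17, chr5:31193054-31193353, plus strand: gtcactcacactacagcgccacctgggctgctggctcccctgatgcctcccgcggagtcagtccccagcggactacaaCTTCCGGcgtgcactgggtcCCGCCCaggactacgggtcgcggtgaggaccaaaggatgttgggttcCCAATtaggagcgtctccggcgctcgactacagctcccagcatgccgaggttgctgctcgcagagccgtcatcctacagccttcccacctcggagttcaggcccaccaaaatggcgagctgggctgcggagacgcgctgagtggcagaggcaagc
Trappc10, chr10:78244596-78244895, minus strand: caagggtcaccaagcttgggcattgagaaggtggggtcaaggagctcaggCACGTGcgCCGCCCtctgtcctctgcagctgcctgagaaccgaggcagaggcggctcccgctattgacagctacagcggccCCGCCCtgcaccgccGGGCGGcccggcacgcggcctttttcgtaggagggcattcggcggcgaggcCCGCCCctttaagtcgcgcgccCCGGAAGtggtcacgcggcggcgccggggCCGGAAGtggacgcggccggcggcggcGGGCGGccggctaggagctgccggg
Exoc4, chr6:33248878-33249177, plus strand: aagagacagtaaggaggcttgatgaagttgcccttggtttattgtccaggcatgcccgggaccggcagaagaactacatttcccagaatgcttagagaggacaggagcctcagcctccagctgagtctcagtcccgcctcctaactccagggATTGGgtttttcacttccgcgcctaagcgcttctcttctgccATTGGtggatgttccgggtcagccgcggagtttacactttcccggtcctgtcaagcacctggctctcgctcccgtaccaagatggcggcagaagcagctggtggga

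The Trappc10 window is the richest of the 5, with 5 Sp matches, 2 ETS matches and 1 E-box in 300 bases of which 73.0% are G or C. Exoc4 has 0 Sp and 0 ETS matches but 2 NF-Y matches, Rab2b has 1 Sp and 1 NF-Y match, and Ap2s1 has 1 ETS and 1 Sp match. The centre of the Rab2b peak lies at -2 bp from the RefSeq start, and the peak also covers the RefSeq promoter of the neighbouring gene Tox4. The Snx17 peak likewise covers the promoter of Eif2b4, so these peaks belong to a shared promoter as much as to the trafficking gene. A peak overlapped another gene's RefSeq promoter in 16 of 129 member promoter peaks in the table of genotype after PPx (12.4%).

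Before PPx, trafficking gene peaks did not differ by genotype at the FDR threshold. Of 111 member peaks (98 genes), 0 were gained or lost in the authors' deposited table, where 0.0128% of all 7826 listed peaks were gained. Their median fold was 0.01 against 0.00 for all peaks, with 56 of 111 above 0. At an unadjusted p under 0.05, 1 member was higher and 2 were lower, all with FDR 1. Across all peaks, 0.843% were higher and 2.30% lower at that p.

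The promoter of Rab9, a GTPase of traffic from late endosomes to the Golgi, stood at 2.86 in controls and 4.34 in KO-labelled islets before PPx in the authors' deposited table (fold 1.48, SE 0.52, p 0.00464, FDR 1). All 3 KO-labelled libraries had the peak called and 0 of 4 controls did. Next in order in that table came Vps37c, an ESCRT-I subunit, at a fold of 0.71, and Sec31a, of the outer COPII coat, at 0.68. At the other end, an intron peak of Vps45, a Sec1/Munc18 protein of endosomal fusion, stood at 3.61 in controls and 2.24 in KO-labelled islets, a fold of -1.37 (SE 0.58, p 0.018, FDR 1) in the authors' deposited table. Snx17, which recycles integrins and lipoprotein receptors from endosomes, had a promoter fold of -1.30 (SE 0.51, p 0.0101, FDR 1), from 4.09 to 2.79. The fold of the Snx11 promoter was -1.18 (p 0.0564). None of these passed the authors' FDR.

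After PPx, most trafficking gene peaks had a higher mean in KO-labelled than in control islets, as did most peaks in the table. Of 174 member peaks, 18 (10.3%) were gained and 0 lost in the authors' deposited table, beside 9.89% gained and 0.0839% lost of all 13111 peaks. At an unadjusted p under 0.05, 76 members were higher and 1 was lower, beside 33% and 0.526% of all peaks. Members had a median fold of 0.695 and all peaks 0.61, and 166 of the 174 member folds lay above 0. Because the whole table is shifted, folds were also read against its median: 107 of 174 member peaks lay above 0.61. Where the shift comes from was not tested, so counts are given with and without it. With the table's median taken off, 0 member peaks were gained and 1, the Vps45 intron peak, was lost. Of all 13111 peaks, 2 were gained and 50 lost in the same way. Among promoters, 16 of 129 member peaks were gained (12.4%) where 14.3% of all promoter peaks were. The members' shares are thus near the background.

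**Figure D1:**
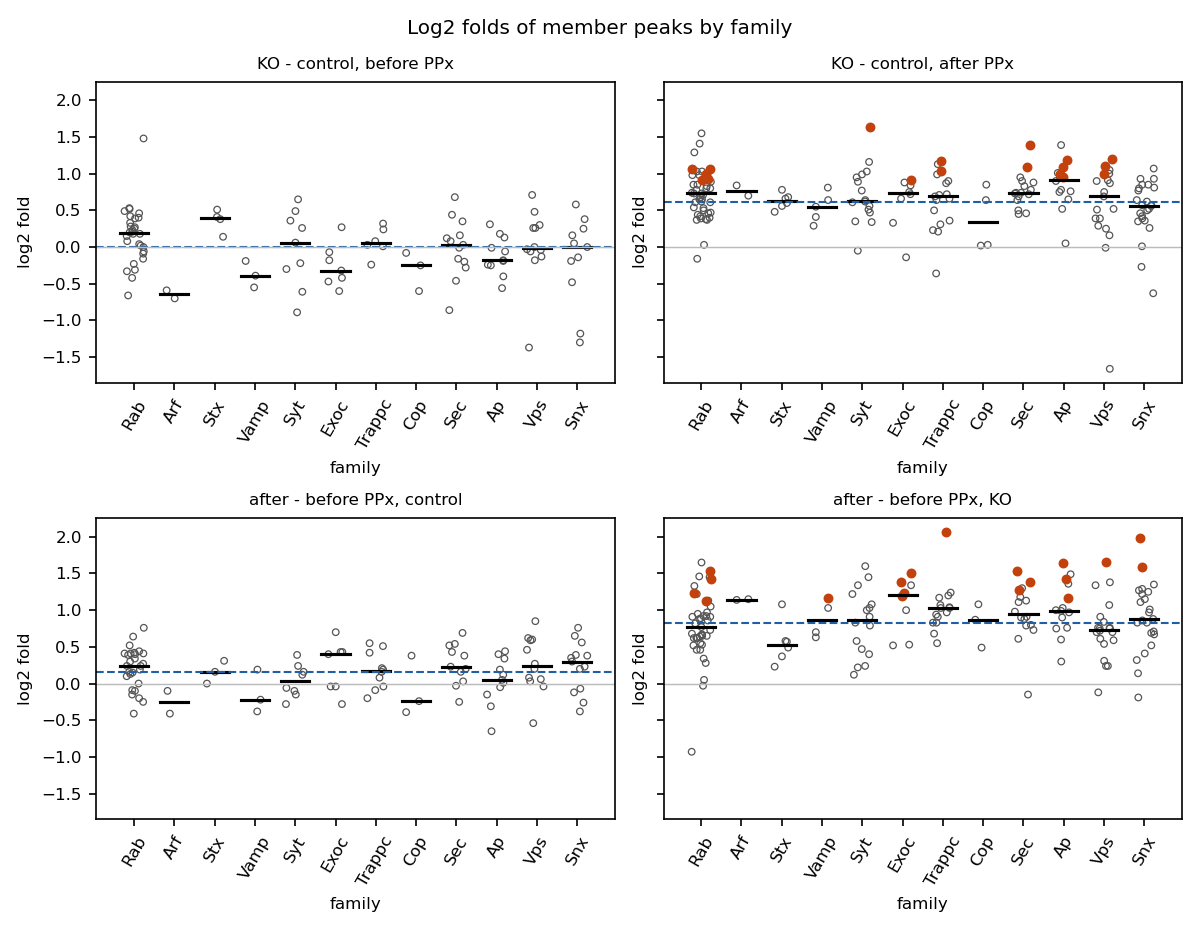
Log2 folds of every member peak by gene family (x axis) in the 4 comparisons, with KO standing for the KO-labelled groups. Filled points were gained at the authors' FDR of 0.05, black bars are family medians, the dashed line is the median of all listed peaks (0.00, 0.61, 0.16 and 0.83), and the upper right and lower right panels hold all the gained peaks.

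Among genes of the early secretory pathway, the Sec61a1 promoter, of the channel through which secretory proteins enter the endoplasmic reticulum, rose from 3.83 in control to 4.91 in KO-labelled islets after PPx in the authors' deposited table (fold 1.09, SE 0.36, FDR 0.0387). All 4 KO-labelled libraries had it called, but 1 of 4 controls. The peak named for Sec14l2, a lipid-binding protein outside the coats and the channel, rose by a fold of 1.39 with FDR 0.0268 in that authors' deposited table, but it lies 21948 bp from the RefSeq start of the gene. Over the 16 Sec peaks 2 were gained (12.5%), beside 9.89% of all peaks. Their median fold was 0.74, with 13 of the 16 above the table's median. TRAPP promoters gained were those of Trappc9, of the TRAPPII complex (fold 1.17, FDR 0.025), and Trappc8, of TRAPPIII (fold 1.04, FDR 0.0396), in the authors' deposited table. These 2 (11.8%) were among 17 TRAPP peaks with a median fold of 0.69, 11 of the 17 above the table's median. Of 4 COPI peaks 0 were gained, and Copz1, a coat subunit, came nearest at a fold of 0.85 with an FDR of 0.0527 in the authors' deposited table.

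The Rab genes gained were 5 of 43 peaks (11.6%), near the 9.89% of all peaks. These 5 were all promoters, with folds within a narrow span. Rab2b, a Golgi Rab, had the highest level of these in the authors' deposited table, 5.70 in control and 6.69 in KO-labelled islets (fold 0.99, SE 0.33, FDR 0.0371). Rab21, an endosomal Rab linked to integrin uptake, rose from 3.77 to 4.84 (fold 1.07, FDR 0.0425) in that authors' deposited table, with the peak called in 0 control and 3 KO-labelled libraries. Rab36 rose by a fold of 1.06 (FDR 0.0462), Rab14, which acts between endosomes and the Golgi, by 0.93 (FDR 0.0376), and Rab1a, of transport from the endoplasmic reticulum to the Golgi, by 0.92 (FDR 0.0466) in the authors' deposited table. The Rab median was 0.73, and 27 of 43 peaks were above the table's median.

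Adaptor subunits had the largest share gained of the 12 families after PPx, 4 of 14 peaks, beside 9.89% of all peaks. Their median fold was 0.92, with 12 of 14 above the table's median of 0.61. The gained peaks belong to 3 genes of small (sigma) subunits, a feature noticed after the values were seen. The promoter of another small subunit gene, Ap1s3, had a fold of 0.05 in the authors' deposited table. Ap2s1, of the adaptor of endocytosis, rose from 3.93 to 5.02 (fold 1.09, SE 0.33 and FDR 0.0286) in the authors' deposited table. Ap1s2, of the adaptor at the trans-Golgi network, had a gained promoter (fold 0.96, FDR 0.0395) and a gained distal peak (chrX:163857612-163858212, 4.04 to 5.22, fold 1.18, FDR 0.0311) in the authors' deposited table. Ap4s1, of an adaptor that works without clathrin, rose by a fold of 1.00 with FDR 0.0393 in that authors' deposited table, in a peak that also covers the promoter of Strn3. With so few peaks in a family, no test of the family was made.

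At the plasma membrane end of the pathway, 1 of 16 Syt and 1 of 8 exocyst peaks were gained, too few peaks to set apart from the 9.89% of all peaks. The highest fold of all members after PPx was at an intron peak of Syt1, a calcium sensor of fast exocytosis (chr10:108661339-108661939), which rose from 2.51 in control to 4.14 in KO-labelled islets in the authors' deposited table (fold 1.64, SE 0.44, FDR 0.0227). The peak caller found it in 3 KO-labelled and 0 control libraries, so it is listed through the KO-labelled group. Its fold exceeded 99.6% of all folds in the table. The Syt1 promoter had a fold of 0.61 with FDR 0.136 in that authors' deposited table. Exoc5, an exocyst subunit, had a gained promoter, 4.73 to 5.65 (fold 0.91, SE 0.32 and FDR 0.0423) in the authors' deposited table, in a peak shared with the promoter of Ap5m1. Of 6 syntaxin and 5 VAMP peaks 0 were gained, with medians of 0.63 and 0.55.

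Among endosomal genes 3 of 19 Vps peaks were gained (15.8%), all promoters, beside 9.89% of all peaks. They belong to Vps26c, of the Retriever recycling complex (3.04 to 4.24, fold 1.20, FDR 0.0387), Vps36, of ESCRT-II (fold 0.99, FDR 0.0425), and Vps54, of the GARP tether at the Golgi (fold 1.10, FDR 0.0491), in the authors' deposited table. Sorting nexins had 0 of 24 peaks gained and a median fold of 0.565, with 10 of 24 above the table's median. Their median concentration, 3.40, was the lowest of the families, and 13 of the 24 had an FDR of 1. Peaks with a mean concentration under about 3.5 all had an FDR of 1 in this authors' deposited table, whatever their p, so they could not be called. That held for 50 of the 174 member peaks, 13 of which had an unadjusted p under 0.05.

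**Figure D2:**
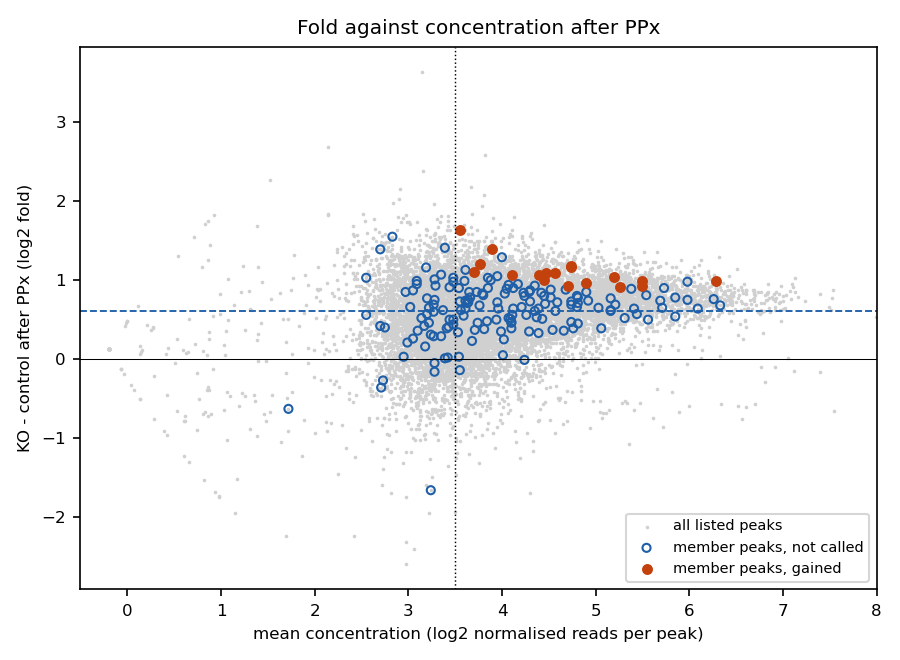
Fold of KO-labelled against control after PPx (y axis, log2) by mean concentration of the peak (x axis, log2 normalised reads), for all listed peaks up to a concentration of 8 (grey) and member peaks. The 18 gained member peaks (filled) all lie at or to the right of the dotted line at 3.5, and the dashed line is the median fold of all peaks, 0.61.

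The Vps45 intron peak (chr3:96044411-96045011) is a peak this floor affects, and it had the lowest fold of the members. In the authors' deposited table it stood at 3.85 in control and 2.19 in KO-labelled islets after PPx (fold -1.66, SE 0.51, p 0.00121, FDR 1), called in all 4 libraries of each group. Benjamini-Hochberg adjustment over all listed p-values gave 0.0441, and with the table's median taken off the fold was -2.27 (adjusted p 0.009). Before PPx, in other libraries, the fold at this peak was -1.37 in the authors' deposited table, from 3.61 to 2.24. Over PPx in KO-labelled islets its fold was -0.12 (p 0.864) in the authors' deposited table. It was named for its low fold, and the promoter of Vps45 is not analysed here.

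**Figure D3:**
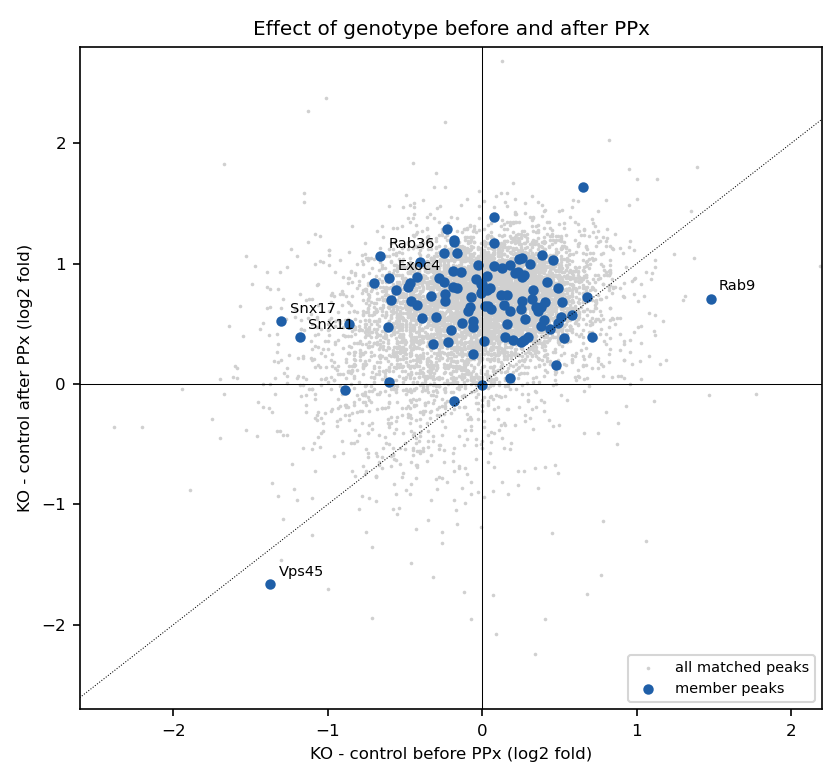
Fold of KO-labelled against control before PPx (x axis) and after PPx (y axis), both log2, for 7504 matched peaks (grey; 1 lies outside the range drawn) and 108 member peaks (blue), with the dotted line where both are equal. Most member peaks lie above 0 on the y axis and on both sides of 0 on the x axis, while the Vps45 intron peak is low on both.

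In control islets, PPx alone moved no trafficking gene past the threshold. Of 110 member peaks 0 were called in the authors' deposited table, and 0% of all 8070. The median fold was 0.19 for members and 0.16 for all peaks. At an unadjusted p under 0.05 there was 1 member, the promoter of Vps4b, the ATPase that disassembles ESCRT-III, at a fold of 0.60 (p 0.0418, FDR 0.999) in the authors' deposited table, while 2.43% of all peaks were higher and 0.0991% lower at that p. The folds ran from -0.65 at the Ap3d1 promoter, of the AP-3 adaptor, to 0.85 at a distal peak of Vps50, with Vps26c at -0.54 and Rab3gap1 and Snx29 at 0.76, in the authors' deposited table.

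In KO-labelled islets most trafficking gene peaks had a higher mean after PPx than before, as did most peaks in the table. The authors' deposited table called 19 of 170 member peaks gained (11.2%) and 0 lost, beside 7.45% of all 12767 peaks gained. At an unadjusted p under 0.05, 83 members were higher and 0 lower, beside 39.4% and 0.0235% of all peaks. Median folds were 0.885 and 0.83, with 165 of 170 member folds above 0 and 92 above the table's median. With that median taken off, 0 member peaks were gained, and 0 of all 12767 peaks. Of promoter peaks, 17 of 128 were gained (13.3%) where 9.73% of all promoter peaks were. This comparison and that of genotype after PPx use the same 4 KO-labelled libraries after PPx, so they are not separate evidence.

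Of the families, the exocyst had the largest share gained, 4 of 8 peaks in 3 genes, beside 7.45% of all peaks. Its median fold was 1.21, with 6 of 8 peaks above the table's median of 0.83. With so few peaks, no test of this family was made. The Exoc3 promoter rose from 2.99 before to 4.50 after PPx (fold 1.51, SE 0.47 and FDR 0.0367) in the authors' deposited table. Exoc4 had a gained promoter, 3.67 to 5.06 (fold 1.39, SE 0.41, FDR 0.0316), and a gained intron peak (chr6:33727356-33727956, 3.30 to 4.53, fold 1.23, FDR 0.0457) in the authors' deposited table. Exoc1 rose from 3.57 to 4.76 (fold 1.19, FDR 0.0476) in that authors' deposited table. The Exoc5 and Exoc6 promoters had folds of 1.00 (FDR 0.0649) and 1.34 (FDR 0.0772) in the same authors' deposited table. In control islets the folds of the Exoc1, Exoc3 and Exoc4 promoters over the same operation were -0.04, 0.43 and -0.04 in the authors' deposited table, and that of the Exoc4 intron peak was 0.70, all with FDR 0.999. The exocyst median in controls was 0.40 over 7 peaks, of which 0 were gained, beside 0.16 for all peaks. In the authors' deposited table before PPx, genotype folds at the Exoc1, Exoc3 and Exoc4 promoters and Exoc4 intron were -0.47, -0.42, -0.60 and -0.32. Their FDRs for genotype after PPx were 0.0657, 0.135, 0.0516 and 0.416 in the authors' deposited table, so none was called there.

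Of tethers and coats in KO-labelled islets, the Trappc10 promoter, of TRAPPII, had the highest fold, from 2.00 to 4.06 (fold 2.07, SE 0.60 and FDR 0.0313) in the authors' deposited table. The peak caller found it in 0 libraries of 3 before PPx and in 3 of 4 afterwards, so it is listed through the libraries after PPx. Of the COPII coat, Sec24b, which binds cargo, rose by a fold of 1.53 (FDR 0.0394) and Sec23b, of the inner coat, by 1.38 (FDR 0.0375) in the authors' deposited table, neither called in any library before PPx. Sec61a1 rose from 3.64 to 4.91 (fold 1.27, FDR 0.0486) in the authors' deposited table. Of the AP-2 adaptor of endocytosis, Ap2m1 rose by 1.64 (3.21 to 4.85, FDR 0.0282) and Ap2s1 by 1.43 (3.59 to 5.02, FDR 0.0282) in the authors' deposited table. The distal Ap1s2 peak rose by 1.17 (FDR 0.049) in that authors' deposited table.

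Among Rab genes 4 of 43 peaks were gained after PPx in KO-labelled islets (9.30%), near the 7.45% of all peaks. Rab33b, a Golgi Rab with a part in autophagy, rose from 4.34 to 5.76 (fold 1.42, SE 0.37 and FDR 0.0231) in the authors' deposited table. Rab36 rose by a fold of 1.53 (FDR 0.0388), Rab11fip1, an effector of Rab11 in recycling, by 1.24 (FDR 0.0443), and Rab2b by 1.12 (FDR 0.0421) in the authors' deposited table. The Rab median, 0.77, was below that of all peaks, and 20 of 43 Rab peaks were above the table's median. The lowest fold of any member was also a Rab promoter, Rab1b, from 2.96 to 2.03 (fold -0.93, p 0.241) in the authors' deposited table.

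Of endosomal genes, Snx17 had one of the steepest folds, 2.31 to 4.29 (fold 1.98, SE 0.51 and FDR 0.0231) in the authors' deposited table, with the peak found in 0 libraries before PPx and in all 4 afterwards. In control islets the same promoter stood at 3.89 before and 3.82 after PPx (fold -0.07) in the authors' deposited table. Vps18, a core subunit of the HOPS and CORVET tethers, rose by 1.66 (2.64 to 4.30, FDR 0.0304) and Snx30 by 1.59 (FDR 0.0451) in the authors' deposited table. Vamp1, a vesicle SNARE, rose by 1.16 (4.72 to 5.88, FDR 0.0483) in that authors' deposited table. Of 16 Syt peaks 0 were gained, beside 7.45% of all peaks.

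A group's levels in 2 tables differ by nearly a constant where the peak has the same place in both, with 95% of such member peaks within 0.05 of it, so the 4 group means were set on the scale of the table of genotype after PPx. Where a peak is placed differently the levels fit less well, by up to 0.42, so a level on this scale is approximate. Of 96 member peaks listed in all 4 tables, the KO-labelled islets after PPx were highest in 92 (95.8%), beside 91.9% of all 6672 such peaks. Among the 47 member peaks placed alike (within 30 bp, in the tables over PPx, a limit chosen after seeing the data) it was 46. The share was 97.9% for these members and 91.3% for all 3663 peaks so placed. Median member levels were 3.98 in controls and 4.03 in KO-labelled islets before PPx, and 4.13 and 4.86 after it. For all 6672 peaks the medians in the same order were 3.945, 3.91, 4.11 and 4.745. Among the 19 peaks gained over PPx in KO-labelled islets, 16 had a fold of genotype before PPx, which was below 0 in 15 of them, against 49 of 108 member peaks with such a fold. The KO-labelled libraries before PPx enter that call, so this order is a description.

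**Figure D4:**
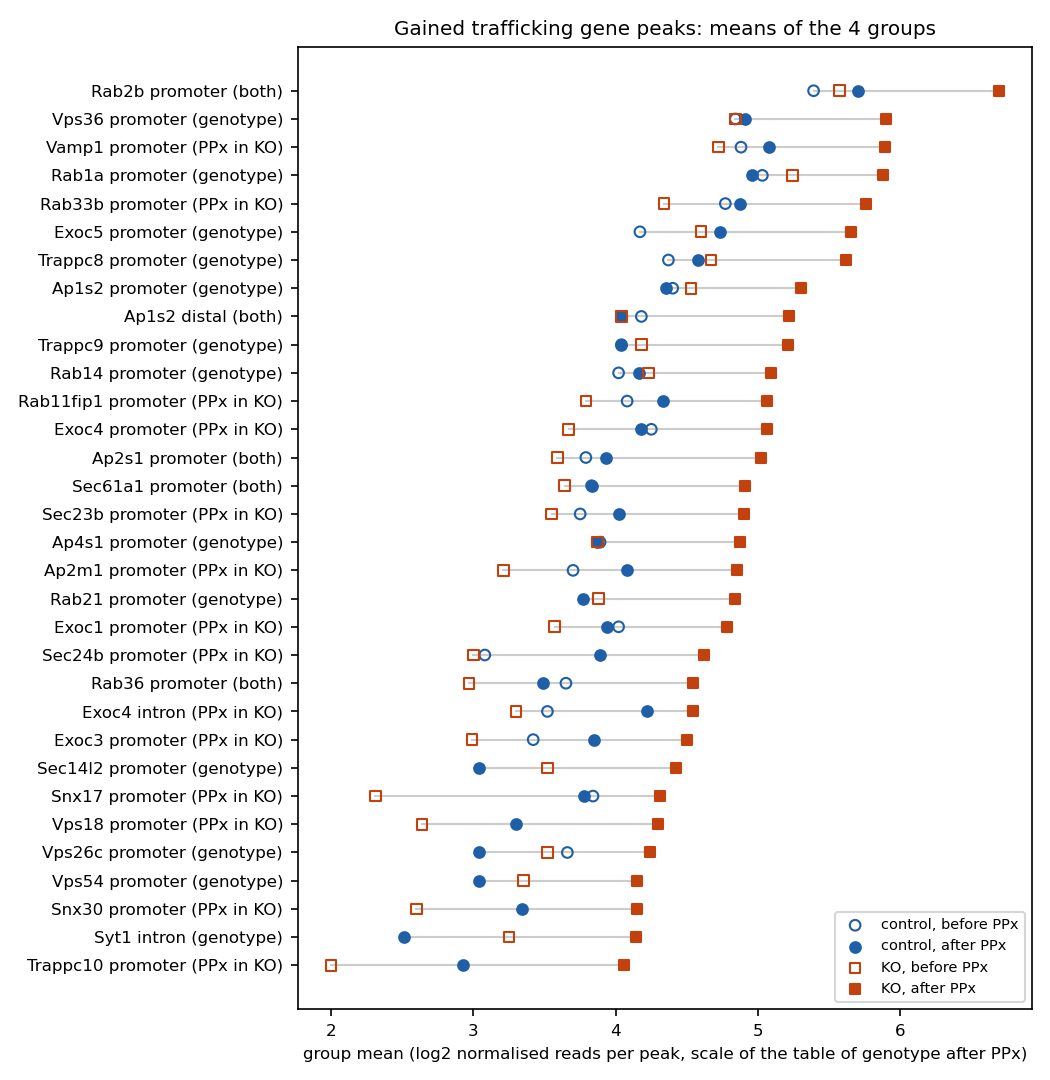
Means of the 4 groups (x axis, log2 normalised reads per peak, on the scale of the table of genotype after PPx) for each member peak gained in either comparison, with KO standing for the KO-labelled groups and the comparison that gained it in brackets. KO-labelled islets after PPx are the rightmost point in every peak shown, as the choice of gained peaks favours, and the order of the other 3 groups varies: KO-labelled islets before PPx are low at Snx17 and controls after PPx at the Syt1 intron.

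Whether the effect of genotype differed before and after PPx was tested for 108 member peaks matched between tables that share no library, with a two-sided z test of the difference of folds and Benjamini-Hochberg adjustment over 7504 peaks. It called 0 member peaks (0.0267% of all peaks), and 24 had an unadjusted p under 0.05, where 14.4% of all peaks did. The median difference was 0.695 for members and 0.64 for all peaks. The smallest p was at the Exoc4 promoter, whose fold was -0.60 before and 0.88 after PPx (difference 1.48, SE 0.51, adjusted p 0.303). Next came Rab36 (difference 1.72), Snx17 (1.82), Arf2 (1.54) and Rab33b (1.31), each with adjusted p 0.303 by the same test. With each table's median taken off, 1 member peak had an unadjusted p under 0.05, beside 1.61% of all peaks.

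Of 28 genes best known for insulin exocytosis 18 had a listed peak; Stx1a, Vamp2, Syt4, Syt11, Stx4a, Rab37, Rab11a, Exoc2, Exoc7 and Exoc8 had none. In genotype after PPx 1 of their 24 peaks was gained, that of Exoc5, beside 9.89% of all peaks. Over PPx in KO-labelled islets 4 of 23 were, beside 7.45% of all peaks, and these are the 4 exocyst peaks described above. Rab27a, which docks insulin granules, had a promoter fold after PPx of 0.44 (p 0.315, FDR 1) in the authors' deposited table. Rab3a, which primes granules, stood at 4.49 in control and 4.96 in KO-labelled islets (fold 0.47, FDR 0.273) in the authors' deposited table. For calcium sensors of beta cells, the folds there were 0.62 at the Syt7 promoter (FDR 0.22) and 0.51 at the Syt9 promoter (FDR 0.254). An intron peak of Rab3b had a fold of 1.55 (1.85 to 3.40, p 0.00796, FDR 1) in the authors' deposited table, at a concentration too low to be called.

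Other genes of exocytosis and the secretory granule, a list of 92 of which 55 had a peak, are given for comparison. Genotype after PPx had 8 of 93 peaks gained (8.60%) and 0 lost, with a median fold of 0.66, and the share is near the 9.89% of all peaks. These were the promoters of Lman1, a cargo receptor (fold 1.35), Myo5a, a granule motor (1.12), Uso1, a Golgi tether (1.05), Scg5, a chaperone of a prohormone convertase (1.03), Bet1l, a Golgi SNARE (1.02), Unc13b, a priming factor (1.00), Tfg (0.95) and Scg3, a granule protein (0.93), in the authors' deposited table. Over PPx in KO-labelled islets 7 of 87 were gained (8.05%), near the 7.45% of all peaks, among them Chgb, a granule matrix protein (fold 1.46), Scg5 (1.40), Rims2 (1.33) and Vti1b (1.32) in the authors' deposited table. Before PPx, and over PPx in controls, 0 of 53 and 0 of 62 were called.

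Peaks of islet cell type markers were read in the same tables. The Ins1 peak rose from 4.13 to 5.62 (fold 1.49, FDR 0.0154) and the Sst peak, of delta cells, from 4.20 to 5.32 (fold 1.12, FDR 0.0294) in genotype after PPx in the authors' deposited table. Of 10 beta cell marker peaks 2 were gained, of 4 alpha cell 0 and of 6 endothelial 0, beside 9.89% of all peaks. Their median folds were 0.68, 0.40 and 0.17, beside 0.61 for all peaks. These lists are too small to set apart from the shift of the whole table. Leukocyte markers gave 2 peaks, with folds of 0.41 at Csf1r and 0.94 at Ptprc in the authors' deposited table. Over PPx in KO-labelled islets Csf1r rose by 2.01 (FDR 0.0282) and Ptprc by 0.23 in the authors' deposited table. The median fold of all peaks there was 0.83. The part of cell composition in the results on trafficking genes was not tested.

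Letters shared by the promoters were counted in RefSeq windows, which 114 of the 141 genes have, on both strands. Of 29 genes with a promoter peak gained in either comparison, 24 have such a window. Sec14l2 is among the 24, though its gained peak lies far from the window, as described above. The ETS letters CCGGAAG occur in 10 of the 24 (41.7%) and in 19.3% of members. They occur in 19.0% of genes with a listed promoter peak and 9.93% of all genes. The E-box CACGTG occurs in 5 of the 24 (20.8%), 14.0% of members and 11.4% of genes with a listed promoter peak. GGGCGG occurs in 66.7% of the 24, 75.4% of members and 70.7% of genes with a listed promoter peak. For CCAAT these shares are 33.3%, 42.1% and 46.6%. The unfolded protein response element TGACGTGG is in 0 of the 24 and in 2 members, the COPII genes Sec23a and Sec24d. The cAMP response element TGACGTCA is in 0 of the 24 and in 1 member, Rab5a. Among genes with a listed promoter peak these 2 elements occur in 1.10% and 3.81%. The NRF1 motif is in 0 of the 114 member windows, 2.42% of genes with a listed promoter peak and 1.07% of all. These are counts of letters and carry no test.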

How the data were processed

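Per the submitters' processing notes, reads (75 bp, single end) were handled with cutadapt, BWA (mm10), MACS, DiffBind and ChIPseeker; versions and settings are not given in the sources used here. The deposited tables hold log2 group concentrations and log2 folds, p-values and FDR values, as the authors computed them, with the number of libraries in which each peak was called. Listed peaks were called in at least 2 libraries of a comparison. Repeated rows (1197 to 5281 a table) were dropped, and folds signed as KO-labelled less control, or after less before PPx. Standard errors were implied from fold and p (bin medians over 40 bins for folds under 0.1 or p of 0.95 or more). Peaks were matched at 1 bp overlap for the test of differences and 301 bp for levels. Python 3.11.15, pandas 2.3.3, numpy 2.4.6, scipy 1.17.1 and matplotlib 3.10.9 were used. The difference test was run on simulated folds without a shift of the whole table. Its power for differences of the size seen here is not given. The members, gene lists, motifs and the naming rule were chosen with earlier results of these data known. Genes named are those called, those of insulin exocytosis, the 3 highest and lowest folds, the 5 smallest p for a changed effect, the other granule genes called, and genes with 3 or more peaks. Every library is taken as a separate animal, which is an assumption, since the labels number samples and do not name animals. The implied errors describe the authors' test and cover only the animals sampled.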

Additional observations from a re-analysis of the deposited data

How the results depend on the processing

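Counts of trafficking gene peaks called depended on the threshold and on the shift of the whole table. For genotype after PPx the 18 calls became 0 at an FDR of 0.01, 6 with Benjamini-Hochberg adjustment over all listed peaks (5 gained and the Vps45 intron peak lost), 77 at an unadjusted p under 0.05 and 1 (Vps45, lost) with the table's median taken off, which moved the median fold from 0.695 to 0.085. Over PPx in KO-labelled islets the 19 calls became 0, 11, 83 and 0 under the same settings, and the median fold moved from 0.885 to 0.055. At an unadjusted p under 0.05 there were 3 calls for genotype before PPx, 1 over PPx in controls and 24 for the changed effect of genotype, each 0 otherwise. The adjustment over all peaks also takes in the peaks of low concentration, which carry an FDR of 1 in the deposited tables. Counting 1 peak per gene, promoters only, peaks of concentration 3.5 or more, or repeated rows as well kept these counts within 1.5 times and the medians within the spread used. No called fold reversed its sign under these settings, but with the median taken off 107 of 174 and 92 of 170 member folds were above 0, down from 166 and 165. Leaving out a library was not possible, since the tables hold 1 mean per group. No paired analysis was possible because the tables hold no values per library. With 3 or 4 libraries a group and depth per library unknown, folds with an SE near 0.4 limit what could be called.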

Other observations

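Several members had 3 or more listed peaks, whose folds are given here with no test of the differences between peaks of a gene. Syt1 had 6 in genotype after PPx: the gained intron peak at a fold of 1.64 stood beside another intron peak at -0.05 (p 0.927) and the promoter at 0.61 in the authors' deposited table. Syt9, a calcium sensor of insulin granules, had 4, from 0.34 to 0.99, of which 0 were called there. Trappc9 had a gained promoter (fold 1.17) beside intron peaks at 0.23 and 0.21 in the authors' deposited table. Vps41, a HOPS subunit, ranged from 0.29 at an exon to 0.90 at an intron, and Snx24 from 0.36 to 0.93 at its promoter, with 0 called in the authors' deposited table. Rab28 and Trappc3l each had 1 peak below 0 (-0.16 and -0.36), and the 3 Vps13d peaks ran from 0.52 to 1.05 there.

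Of the 141 genes 89 had a peak in all 4 tables, and 35 (24.8%) had one only in the tables that hold the KO-labelled libraries after PPx, beside 28.5% of all genes. A peak is listed only where it was called in at least 2 libraries of a comparison, a rule that is the same in all 4 tables.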
